A study of Mus musculus with 4 samples.

Results

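The genes described here are the PGC-1 coactivator family (Ppargc1a, Ppargc1b and Pprc1) and the transcription factors through which it acts on mitochondria (Nrf1, Gabpa, Esrra and Tfam), taken by gene symbol from the deposited tables. All 7 symbols were found among 55487 gene identifiers, each once, and all 7 passed the filter on low counts. The set was selected on values of the morpholino comparison, namely the levels in the 4 libraries and the ratios within each mouse, so the values of the 7 genes in that comparison are given as a description and without a test.

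RNA was measured in muscle stem cells (satellite cells) of Tg:Pax7-nGFP mice, whose satellite cells carry a green fluorescent nuclear reporter driven by Pax7. Minced skeletal muscle was exposed to a vivo-morpholino, an antisense oligomer that enters cells without transfection, while it was first being digested, and the satellite cells were isolated afterwards. Muscle of each of 2 mice received a Numb exon 6 morpholino, which blocks inclusion of exon 6 of the Notch inhibitor Numb, and, as a separate sample, a control morpholino, giving 2 libraries per morpholino and 4 in all. The reporter genotype, the digestion and the animals are common to both groups, and the labels state neither age nor sex. The deposited tables hold gene totals, which do not separate exon 6, so its blocking was not checked here. Because the libraries of a group come from only 2 animals, the spread between them is a spread between these animals.

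PGC-1 proteins are coactivators: they do not bind DNA themselves but dock on transcription factors and recruit histone acetyltransferases and the Mediator complex. Nrf1 and Gabpa (nuclear respiratory factors 1 and 2) and the orphan receptor Esrra are their main partners in switching on nuclear genes of the respiratory chain, and Tfam, a target of both respiratory factors, carries the signal into the mitochondrion, where it packages mitochondrial DNA and starts its transcription. In muscle Ppargc1a is known as the exercise-induced driver of oxidative fibres, whereas Pprc1 (PGC-1-related coactivator) is known from cultured fibroblasts as a gene induced by serum when cells leave quiescence. Satellite cells are quiescent in intact muscle, and dissociating the tissue activates them.

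Estimated counts summed to between 230431665 and 355411827 per library, with 5.00% to 8.95% of them in rRNA-like genes. Markers of the labelled cell type were abundant. The summed level of 10 satellite cell markers was 14779 and 15150 CPM (counts scaled to the library total) in the Numb exon 6 libraries of mouse 1 and mouse 2, against 13412 and 14177 CPM in the control libraries. Myod1, the myogenic factor of activated satellite cells, stood between 1180 and 1466 CPM. Summed leukocyte markers (8 genes) had 24.8 and 50.6 CPM in the Numb exon 6 libraries, against 18.8 and 20.6 CPM in the controls, with 7 of the 8 higher in both mice. Markers of fibro-adipogenic cells (6 genes) summed to 656 and 659 CPM in the Numb exon 6 libraries, against 618 and 539 CPM in the controls. The sums were likewise higher in both mice for erythroid markers (4 genes; 215 and 397 CPM in the Numb exon 6 libraries, against 130.2 and 353 CPM in the controls) and endothelial markers (5 genes; 169 and 137 CPM, against 138 and 124 CPM). They were also higher in both for 9 myofibre markers (237 and 249 CPM, against 223 and 226 CPM) and 5 mural markers (413 and 355 CPM, against 378 and 353 CPM). Single markers were less uniform than the sums. Those higher in both mice were 5 of 6 fibro-adipogenic, 3 of 4 erythroid, 3 of 5 endothelial and 3 of 5 mural markers. Of the 9 myofibre markers 4 were higher and 1 was lower in both, and of the 10 satellite markers 6 were higher and 1 was lower. Over all tested genes 28.1% were higher and 27.3% lower in both mice. The 4 glial markers summed to 19.8 and 8.69 CPM, against 9.22 and 11.1 CPM, higher in mouse 1 alone, and none of the 51 markers of the 8 lists was at 0 in any library. Single genes made up most of some sums. Sdc4 gave 8602 to 9587 CPM of the satellite sum, whereas Pax7 stood between 113 and 173 CPM. Tek gave 96.1 to 117 CPM of the endothelial, Notch3 222 to 235 CPM of the mural and Actn3 176 to 199 CPM of the myofibre sum. Whether these transcripts came from other cell types was not tested. The part of other cells in the values below was not tested either, and in bulk RNA fewer cells of a type and less RNA per cell cannot be told apart.

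Pprc1 was by far the most abundant PGC-1 coactivator of these satellite cells. In TPM (abundance scaled to transcript length and library total), it made up 94.8% and 96.8% of the summed level of the 3 coactivators in the Numb exon 6 libraries of mouse 1 and mouse 2, and 97.5% and 96.4% in the controls. Its level was 25.5 and 68.4 times that of Ppargc1a in the Numb exon 6 libraries, and 51.4 and 41.4 times in the controls. Over the 4 libraries the mean was 81.4 TPM for Pprc1, 43.8 TPM for Tfam, 33.3 TPM for Nrf1, 32.7 TPM for Gabpa, 1.94 TPM for Ppargc1a, 1.18 TPM for Esrra and 1.04 TPM for Ppargc1b. The lowest library of Pprc1 lay above the highest of Tfam, and the lowest of Tfam above the highest of Nrf1 and Gabpa. The values of Nrf1 and Gabpa overlapped, as did those of Ppargc1a, Esrra and Ppargc1b, so the order inside these groups is not set by the data. Of the 27551 tested genes, 93.9% had a lower mean TPM than Pprc1, 89.1% than Tfam and 86.5% than Nrf1, while the figure was 52.1% for Ppargc1a, 45.6% for Esrra and 44.0% for Ppargc1b.

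**Figure D1:**
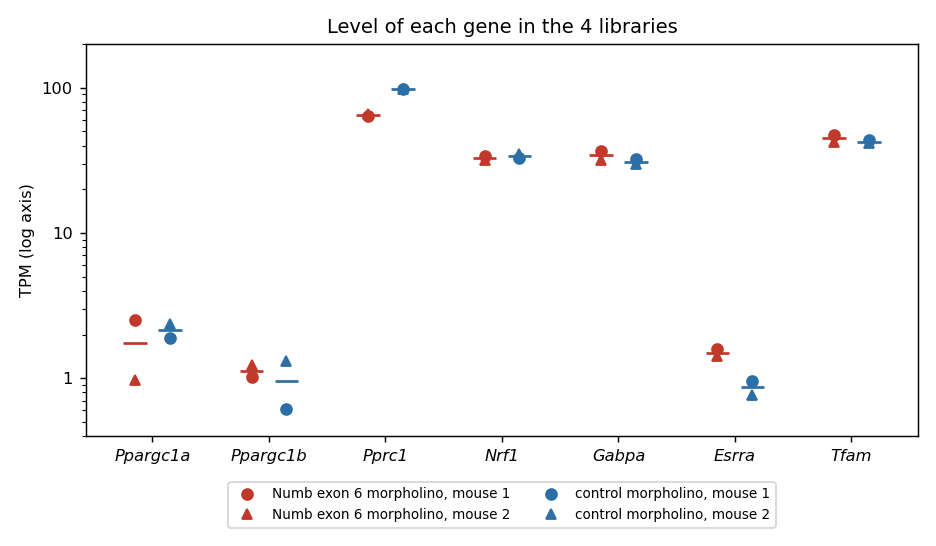
TPM of each gene in each library on a log axis; red marks the Numb exon 6 and blue the control morpholino, circles mouse 1 and triangles mouse 2, and the short bars are group means (n = 2). Pprc1 sits above the other genes in all 4 libraries, at 63.9 to 97.9 TPM, and Ppargc1a, Ppargc1b and Esrra sit between 0.618 and 2.51 TPM.

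Pprc1 (ENSMUSG00000055491.14, GRCm38 chromosome 19, 46044886 to 46072915, plus strand) was lower with the Numb exon 6 morpholino in both mice. It stood at 63.9 TPM in the Numb exon 6 sample from mouse 1 and 66.1 TPM in that from mouse 2, against 97.9 and 97.8 TPM in the controls. The groups did not overlap, and the gap was many times the difference between the mice within either group. On the count scale the values were 93.5 and 87.8 CPM in the Numb exon 6 libraries, against 169.9 and 161 CPM in the controls. The log2 ratio within the mouse was -0.86 in mouse 1 and -0.87 in mouse 2, and the log2 fold change was -0.87 ± 0.11 (SE, 2 libraries per group), or -0.87 ± 0.08 (SE) under a mouse block.

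Of the 8540 genes whose mean log2 CPM reached 3, 12 were lower in both mice by at least as much as Pprc1, itself included. The set was chosen with these values in view, so they give no independent support. Over all 27551 genes edgeR's quasi-likelihood test called 0% of genes at an adjusted p under 0.05, while 4.16% had an unadjusted p under 0.05.

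The size of the Pprc1 difference depended on the scale. Per transcript it was 34.7% lower in mouse 1 and 32.4% lower in mouse 2, whereas in CPM it was 44.9% and 45.4% lower, and on log2(TPM + 1) the log2 fold change was -0.58 ± 0.10 (SE). The deposited estimated count of a gene follows its TPM times the length of its transcripts, so the ratio of the tables returns the mean length of the transcripts to which the counts were assigned. For Pprc1 this implied length was 2868 and 2612 bases in the Numb exon 6 libraries of mouse 1 and mouse 2, against 3223 and 3158 bases in the controls. It was shorter in both mice, by 0.17 and 0.27 on the log2 scale. Length is not the only difference between the scales, since CPM also carry a scaling factor per library (TMM) and TPM do not. The log2 ratio of TPM was -0.62 in mouse 1 and -0.56 in mouse 2, against -0.86 and -0.87 in CPM. A mean length shorter by over 0.1 log2 in both mice was seen in 1.74% of 14465 genes at a mean of at least 1 TPM and 100 counts in every library. The annotation (GENCODE vM21) gives Pprc1 11 transcripts of 305 to 5246 bases, 7 of them protein coding, and the implied lengths lie between the short and the full-length forms.

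**Figure D2:**
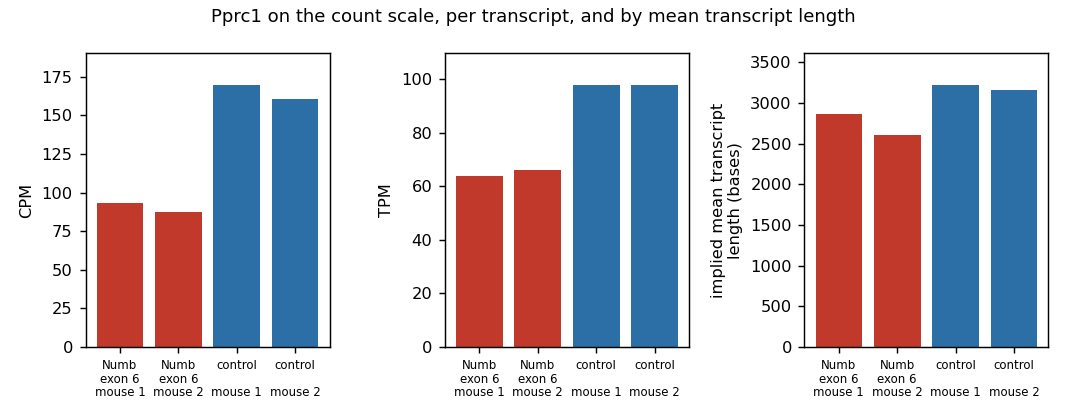
Pprc1 in each library as CPM (left), TPM (middle) and implied mean transcript length in bases (right); red bars are the Numb exon 6 libraries and blue bars the controls, 1 bar per library. The Numb exon 6 bars are lower on all 3 scales: 93.5 and 87.8 against 169.9 and 161 CPM, 63.9 and 66.1 against 97.9 and 97.8 TPM, and 2868 and 2612 against 3223 and 3158 bases.

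The start region of Pprc1 is shown because Pprc1 is the most abundant of the 7 genes and was lower in both mice. RefSeq (GRCm38.p6) places these 250 bases, chr19:46056289-46056538 on the plus strand, directly before the start, and the capitals mark ACTACAATT, the opening of the element bound by the zinc finger factor ZNF143.

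Pprc1: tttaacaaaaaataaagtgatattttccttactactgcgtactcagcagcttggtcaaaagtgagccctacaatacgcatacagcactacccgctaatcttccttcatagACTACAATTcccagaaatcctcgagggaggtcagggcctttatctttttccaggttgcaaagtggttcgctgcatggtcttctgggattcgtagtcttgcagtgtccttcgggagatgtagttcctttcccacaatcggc

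That motif was searched after the sequence had been read, so the match was fixed in advance and its rarity elsewhere gives no support. The motif lies at 46056399 to 46056407, 132 to 140 bases before the start. On either strand it occurs in 0.393% of the 32851 RefSeq promoter windows. Inexact forms were not searched. The window holds none of the motifs searched for the respiratory factors, which says only that those letters are not in these bases. With 45.2% G and C, it is poorer in them than the windows of Tfam (72.0%) and Esrra (68.4%) described below.

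Reads of Pprc1 and its neighbours were also set side by side, since the library method does not mark the strand. The divergent gene Ldb1, a cofactor of LIM-domain proteins, overlaps Pprc1 by 329 bases, at the distant start of the single short transcript Pprc1-207. Ldb1 had 10.9 and 14.1 CPM in the Numb exon 6 libraries, against 10.7 and 13.4 CPM in the controls. Nolc1, a nucleolar protein of ribosome production, starts 2947 bases downstream on the same strand, with 264 and 234 CPM in the Numb exon 6 libraries against 347 and 284 CPM in the controls. The log2 fold change was 0.05 ± 0.22 for Ldb1 and -0.34 ± 0.14 for Nolc1 (SE, 2 libraries per group; edgeR adjusted p = 0.999 for both).

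By distance between log2 CPM values centred on each gene's mean over the 4 libraries, the 5 of 7975 expressed genes nearest to Pprc1 were Setd1a, Gspt1, Atp6v0c, Srp14 and Pcdhgb1, at distances of 0.061, 0.12, 0.19, 0.20 and 0.23. Setd1a is a histone H3K4 methyltransferase and Gspt1 a translation release factor. Their log2 fold changes were -0.90 ± 0.14 and -0.88 ± 0.13 (SE). With 4 libraries such a likeness rests on little more than the morpholino difference and its size.

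Ppargc1a (ENSMUSG00000029167.13, chromosome 5, 51454250 to 51567726, minus strand), the coactivator of oxidative muscle, went in opposite directions in the mice. It stood at 6.42 CPM in the Numb exon 6 sample from mouse 1 and 3.18 CPM in that from mouse 2, against 3.47 and 5.37 CPM in the controls. The log2 ratio was 0.89 in mouse 1 and -0.76 in mouse 2, the groups overlapped, and the log2 fold change was 0.12 ± 0.42 (SE, 2 libraries per group). Without the Numb exon 6 sample from mouse 1 it was -0.48, without that from mouse 2 it was 0.54, and without the control library of mouse 1 it was -0.16, so its direction turned without either library of mouse 1. In TPM the values were 2.51 and 0.966 with the Numb exon 6 morpholino, against 1.91 and 2.36 in the controls, and the log2 fold change on log2(TPM + 1) was -0.25 ± 0.34 (SE).

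The implied transcript length of Ppargc1a was longer with the Numb exon 6 morpholino in both mice. It was 5021 and 6469.7 bases in the Numb exon 6 libraries of mouse 1 and mouse 2, against 3386 and 4362 bases in the controls. The log2 ratio was 0.57 in each mouse, and 2.83% of the 14465 genes were longer by over 0.1 log2 in both. The longest annotated form, Ppargc1a-203, has 6464 bases, close to the value of mouse 2 with the Numb exon 6 morpholino, while the other libraries lay between it and the shorter forms. These lengths rest on 743 to 2057 estimated counts per library, which come from coverage and not from counted fragments.

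Ppargc1b (ENSMUSG00000033871.14, chromosome 18), the family member closest to Ppargc1a, was among the 3 low genes. It had 1.90 and 2.24 CPM in the Numb exon 6 libraries of mouse 1 and mouse 2, against 1.22 and 2.49 CPM in the controls. Its log2 ratio was 0.64 for mouse 1 and -0.15 for mouse 2, the control libraries lay on both sides of the Numb exon 6 ones, and the log2 fold change was 0.16 ± 0.41 (SE, 2 libraries per group). It was -0.27 without the control library of mouse 1 and 0.75 without that of mouse 2. Its implied length stayed between 3558 and 3661 bases, close to the 3656 bases of its longest annotated transcript.

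The expressed genes nearest in pattern to Ppargc1b, by the same distance, were Retreg1, Tbx6, Ripk2, Pabpn1 and Icosl (0.085 to 0.14).

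Nrf1 (ENSMUSG00000058440.14, chromosome 6, 30047988 to 30153458, plus strand), which binds a GC-rich palindrome in promoters of respiratory genes, differed little across the libraries. It had 35.8 and 32.9 CPM in the Numb exon 6 libraries of mouse 1 and mouse 2, against 36.3 and 36.0 CPM in the controls, so both Numb exon 6 values lay just under the controls. The log2 ratios were -0.02 and -0.13 and the log2 fold change -0.07 ± 0.13 (SE, 2 libraries per group). In TPM the groups overlapped, at 33.7 and 31.8 with the Numb exon 6 morpholino against 32.8 and 34.8 in the controls.

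Gabpa (ENSMUSG00000008976.16, chromosome 16, 84834925 to 84863779, plus strand) encodes the DNA-binding ETS-domain subunit of nuclear respiratory factor 2. It had 89.0 and 74.8 CPM in the Numb exon 6 libraries of mouse 1 and mouse 2, against 82.9 and 71.7 CPM in the controls. Mouse 1 was the higher animal with either morpholino, so the groups overlapped, and the log2 ratios within the mice were 0.10 and 0.06. The log2 fold change was 0.08 ± 0.15 (SE, 2 libraries per group), and the SE was 0.09 under a mouse block. Gabpa shares its start with Atp5j, a subunit gene of ATP synthase that runs the other way and overlaps it by 701 bases. Atp5j had 38.7 and 35.6 CPM in the Numb exon 6 libraries, against 41.7 and 38.9 CPM in the controls. Reads in the overlap of these genes cannot be assigned with certainty.

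The partner subunits of Gabpa, which carry the activation domain of the complex, are encoded by Gabpb1 and Gabpb2. Gabpb1 stood at 72.2 and 73.8 TPM in the Numb exon 6 libraries, against 57.2 and 81.0 TPM in the controls. Gabpb2 stood at 7.62 and 6.47 TPM, against 5.68 and 5.18 TPM, higher in both mice but not called (log2 fold change 0.33 ± 0.16, SE, 2 libraries per group; edgeR adjusted p = 0.999, and 0.796 under a mouse block).

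Esrra (ENSMUSG00000024955.14, chromosome 19, 6910977 to 6921813, minus strand), the oestrogen-related receptor of mitochondrial and fatty acid genes, was low but higher with the Numb exon 6 morpholino in both mice. It stood at 1.58 TPM in the Numb exon 6 sample from mouse 1 and 1.42 TPM in that from mouse 2, against 0.962 and 0.771 TPM in the controls. In CPM the values were 1.65 and 1.42 with the Numb exon 6 morpholino, against 0.888 and 0.827 in the controls, and the groups did not overlap on either scale. The log2 ratio was 0.89 for mouse 1 and 0.77 for mouse 2, with a log2 fold change of 0.84 ± 0.31 (SE, 2 libraries per group). The libraries held 253 to 527 estimated counts of Esrra, and the number of fragments behind them is not known. Its implied length was 2039 and 1965 bases with the Numb exon 6 morpholino, against 1714 and 2062 bases in the controls, and these overlapped. On log2(TPM + 1), which understates the change of low genes, the log2 fold change was 0.42 ± 0.19 (SE).

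Esrra and Pprc1 lie far apart on the same chromosome. The tail of Esrra overlaps that of Trmt112, a methyltransferase subunit on the other strand, by 73 bases, and Prdx5, a mitochondrial peroxiredoxin on the same strand, starts 870 bases beyond it. Trmt112 had 13.3 and 12.9 CPM in the Numb exon 6 libraries, against 14.6 and 13.0 CPM in the controls. Prdx5 stood at 28.2 and 30.8 CPM, against 29.2 and 28.2 CPM. On the other side Catsperz, a sperm channel subunit gene 557 bases away, had 0.162 and 0.265 CPM in the Numb exon 6 libraries, against 0.0229 and 0.121 CPM in the controls. Its log2 fold change was 1.57 ± 1.03 (SE, 2 libraries per group; edgeR adjusted p = 0.999). Kcnk4, a potassium channel gene 2152 bases away, was at most 0.141 CPM in any library. Trmt112 and Prdx5 did not share the difference of Esrra, whereas Catsperz, at a level far under that of Esrra, was higher in both mice.

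The other oestrogen-related receptors did not follow Esrra in both mice. Esrrg stood at 4.16 and 5.68 TPM in the Numb exon 6 libraries, against 2.71 and 5.95 TPM in the controls, with a log2 fold change of 0.14 ± 0.43 (SE, 2 libraries per group). Esrrb was at most 0.0626 TPM in any library.

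Tfam (ENSMUSG00000003923.14, chromosome 10, 71225464 to 71238280, minus strand) lay close between the morpholinos. It stood at 47.5 and 42.6 TPM in the Numb exon 6 libraries of mouse 1 and mouse 2, against 43.4 and 41.7 TPM in the controls, and at 92.2 and 80.8 CPM against 88.5 and 81.0 CPM. The log2 ratios of CPM were 0.06 and -0.003, with a log2 fold change of 0.03 ± 0.13 (SE, 2 libraries per group). The TPM values of the groups overlapped, and the implied length stayed between 3728 and 3802 bases. Transcripts of mitochondrial DNA, which Tfam helps to start, took 4.11% and 4.47% of the counts in the Numb exon 6 libraries, against 4.35% and 3.98% in the controls.

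The start regions of Esrra and Tfam are shown because each holds a motif of another member. Capitals mark GCATGCGC, the core bound by Nrf1, in the 250 bases before the RefSeq start of Esrra (chr19:6921809-6922058, minus strand), and CCGGAAGT, the ETS motif bound by Gabpa, in 30 bases before the RefSeq start of Tfam on the minus strand of chromosome 10.

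Esrra: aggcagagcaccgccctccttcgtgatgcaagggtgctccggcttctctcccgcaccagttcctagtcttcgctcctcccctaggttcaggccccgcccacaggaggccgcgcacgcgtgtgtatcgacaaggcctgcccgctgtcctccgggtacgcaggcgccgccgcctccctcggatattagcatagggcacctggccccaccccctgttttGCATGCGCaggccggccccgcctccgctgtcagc

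Tfam: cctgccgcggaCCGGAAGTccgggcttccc

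The Nrf1 core of Esrra lies at 6921835 to 6921842, 27 to 34 bases before the start. The ETS motif of Tfam lies at 71238084 to 71238091, 40 to 47 bases before the RefSeq start but inside the span of the longer GENCODE transcript Tfam-201. Promoter windows were found for 6 of the 7 genes, and 1 of the 6 held the Nrf1 core and 1 the ETS motif on either strand, against 3.05% and 4.31% of the 27025 genes with a window. None of the 6 held the oestrogen-related receptor element TCAAGGTCA (0.466% of all genes) or the cyclic AMP element TGACGTCA (2.03%). The only window of Ppargc1a adjoins the start of the short form Ppargc1a-202 (488 bases). The longest form, Ppargc1a-203, starts elsewhere, at 51553922, and the bases before that start were not searched. Ppargc1b had no window, so its promoter was not searched either. No matches of different motifs overlapped in these windows. A match of letters is no proof of a binding site.

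Taken over the 7 genes, 2 were lower in both mice in CPM (Pprc1 and Nrf1), 2 higher in both (Gabpa and Esrra) and 3 differed in sign between the mice. Over all tested genes 27.3% were lower in both mice and 28.1% were higher, also in CPM. On log2(TPM + 1) Nrf1 differed in sign between the mice (0.04 and -0.13) and Tfam was higher in both (0.13 and 0.03). The 2 scales are offset over expressed genes in general. The median log2 fold change of the 8540 genes whose mean log2 CPM reached 3 was 0.05 on log2(TPM + 1) and 0.006 from counts. The choice of the genes used this contrast, so nothing is read from the comparison. The ratios of Pprc1 and Esrra were close between the mice, and those of Ppargc1a were opposite in sign. The Ppargc1a ratios were of similar size in CPM (0.89 and -0.76) but not on log2(TPM + 1) (0.27 and -0.77).

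**Figure D3:**
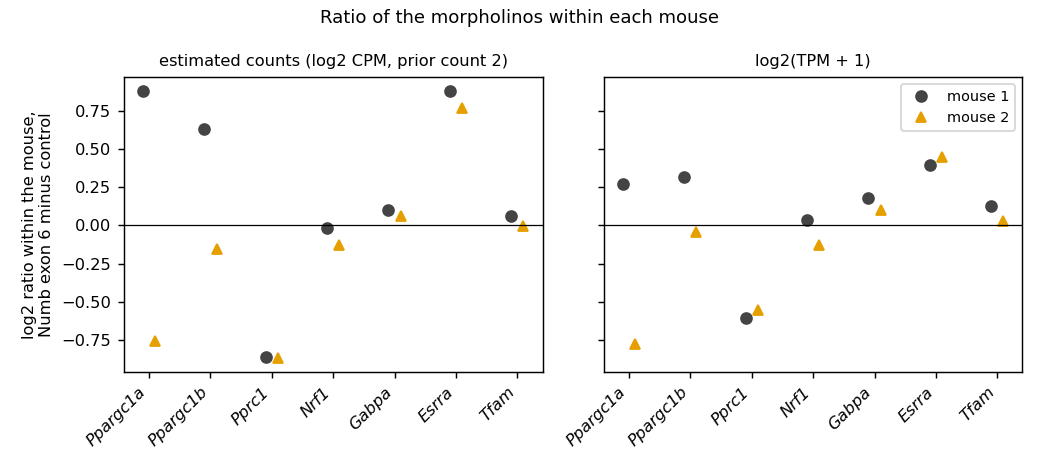
Log2 ratio of the Numb exon 6 to the control morpholino within each mouse for each gene, from log2 CPM (left) and from log2(TPM + 1) (right); circles are mouse 1 and triangles mouse 2, and the line marks no difference. Pprc1 is below and Esrra above the line in both mice on both scales, while Ppargc1a is above it in mouse 1 and below it in mouse 2.

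Genes around the PGC-1 axis were counted next, in 7 lists of 185 genes that exclude the 7 members. EdgeR called 0 of 184 tested genes in either direction, with 5 (2.72%) at an unadjusted p under 0.05, against 4.16% of all genes and 3.58% of the 8540 genes whose mean log2 CPM reached 3. Under a mouse block edgeR again called 0, and 14 (7.61%) had an unadjusted p under 0.05 against 6.09% of all genes and 10.3% of those 8540. Most list genes, 151, had a mean of 8 CPM or more. DESeq2 and limma-voom called 0, and DESeq2 under a mouse block called 1, Pdk4. Over all 27551 tested genes DESeq2 called 65 and, under a mouse block, 159, of which 100 were among the 8540. Of the 184 genes, 54 (29.3%) were higher and 52 (28.3%) lower in both mice, near the shares over all genes, and their median log2 fold change was -0.004, against 0.005 over all tested genes.

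**Figure D4:**
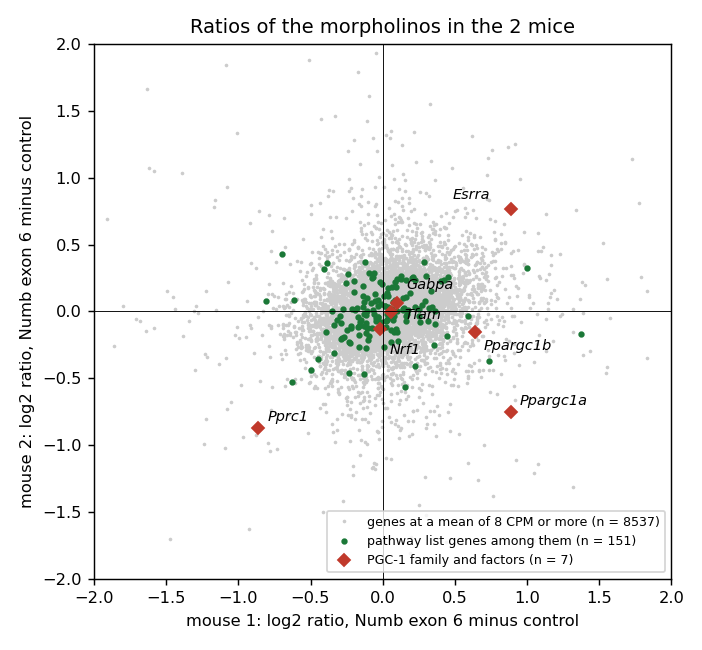
Log2 ratio of the Numb exon 6 to the control morpholino in mouse 1 (x axis) and mouse 2 (y axis); grey dots are the 8537 genes at a mean of 8 CPM or more (31 lie outside the axes), green dots the 151 pathway list genes among them (1 outside), and red diamonds the 7 PGC-1 family genes and factors. Pprc1 lies at -0.86 and -0.87, Esrra at 0.89 and 0.77, and Nrf1, Gabpa and Tfam lie close to the origin.

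Regulators that modify the coactivators (31 tested genes) had a median log2 fold change of 0.01, with 10 higher and 10 lower in both mice. Carm1, an arginine methyltransferase that works with nuclear receptor coactivators, stood at 13.0 and 12.5 TPM in the Numb exon 6 libraries, against 17.5 and 16.7 TPM in the controls. Its log2 fold change was -0.58 ± 0.16 (SE, 2 libraries per group; edgeR adjusted p = 0.999, and 0.796 under a mouse block). Creb1, the cyclic AMP factor that drives Ppargc1a and also binds Pprc1 protein, stood at 74.1 and 19.5 CPM, against 12.5 and 17.5 CPM, and was high in the Numb exon 6 sample from mouse 1 alone. The size depended on the scale. In TPM Creb1 stood at 27.5 and 12.7, against 13.2 and 9.82. It had a log2 fold change of 1.65 ± 0.63 from counts and 0.67 ± 0.37 on log2(TPM + 1) (SE). Its relative Atf2 stood at 51.9 and 48.1 TPM, against 41.3 and 38.5 TPM, with a log2 fold change of 0.28 ± 0.13 (SE).

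The deacetylase Sirt1 had a log2 fold change of 0.13 ± 0.21, the acetyltransferase Kat2a of 0.02 ± 0.17, the energy-sensing kinase subunit Prkaa1 of 0.08 ± 0.18 and the corepressor Nrip1 of 0.01 ± 0.12 (SE, 2 libraries per group). Hcfc1, a chromatin cofactor to which the coactivators bind, had one of -0.11 ± 0.11 (SE). The kinase Camk4 had -1.63 ± 0.62 (SE), at no more than 0.564 CPM in any library.

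Partner factors (18 genes) had a median of -0.03, with 4 higher and 4 lower in both mice. The retinoid receptor Rxrb stood at 13.4 and 10.7 TPM in the Numb exon 6 libraries, against 16.2 and 12.7 TPM in the controls. The thyroid hormone receptor Thrb was low in the Numb exon 6 sample from mouse 2 alone, at 0.913 TPM, against 1.68 to 1.80 TPM in the other libraries.

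Genes that copy, transcribe and process mitochondrial DNA (25 genes) had a median of 0.04, with 9 higher and 5 lower in both mice. The transcription factor Tfb2m had 81.0 and 74.1 CPM in the Numb exon 6 libraries, against 85.7 and 71.1 CPM in the controls. The methyltransferase Tfb1m had a log2 fold change of 0.04 ± 0.36, the polymerase Polrmt of 0.09 ± 0.27, the helicase Twnk of -0.11 ± 0.16 and the single-strand binding protein Ssbp1 of 0.13 ± 0.17 (SE, 2 libraries per group). The primase Primpol stood at 2.57 and 2.71 CPM, against 1.08 and 1.99 CPM, and the nuclease Dna2 at 0.440 and 0.483 CPM, against 1.04 and 0.674 CPM.

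Genes of the respiratory chain and its assembly (37 genes), the textbook targets of Nrf1 and Gabpa, had a median of -0.05. In both mice 17 of them (45.9%) were lower and 9 (24.3%) higher, against 27.3% and 28.1% of all genes and 30.1% and 31.1% of the 8540. Cox6c, a subunit of cytochrome oxidase, stood at 137 and 121 TPM in the Numb exon 6 libraries, against 195 and 158 TPM in the controls, and was the only gene of this list at an unadjusted p under 0.05. Its log2 fold change was -0.47 ± 0.18 (SE, 2 libraries per group; edgeR adjusted p = 0.999, and 0.796 under a mouse block). Cytochrome c (Cycs) had -0.11 ± 0.10, the oxidase subunit Cox4i1 -0.04 ± 0.14 and Alas1, the entry enzyme of haem synthesis, 0.07 ± 0.20 (SE). On log2(TPM + 1) the median of this list was -0.001, against 0.02 over all tested genes and 0.05 over the 8540. From counts the median was -0.05, against 0.005 and 0.006.

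Fuel and antioxidant genes (34 genes) had a median of 0.03, with 11 higher and 5 lower in both mice. Pdk4, the kinase that shuts pyruvate out of the citric acid cycle and a classic target of Esrra with PGC-1, stood at 80.6 and 72.7 TPM in the Numb exon 6 libraries, against 38.0 and 56.3 TPM in the controls. The log2 ratios of CPM were 1.00 in mouse 1 and 0.33 in mouse 2, and the log2 fold change was 0.64 ± 0.20 (SE, 2 libraries per group). It did not pass in edgeR (adjusted p = 0.999, and 0.796 under a mouse block), while DESeq2 under a mouse block called it (adjusted p = 0.0187). That DESeq2 fit called 159 genes among all tested genes. Glutathione peroxidase Gpx1 stood at 49.9 and 51.2 TPM, against 63.2 and 65.0 TPM, and catalase (Cat) at 17.6 and 20.7 TPM, against 13.7 and 15.6 TPM.

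Protein import genes (24 genes) had a median of -0.06, with 7 higher and 10 lower in both mice. The import receptor Tomm70a stood at 44.8 and 34.1 TPM in the Numb exon 6 libraries, against 49.9 and 44.9 TPM in the controls. The matrix co-chaperonin Hspe1 stood at 484 and 450 TPM, against 393 and 372 TPM. Fusion, fission and mitophagy genes (15 genes) had a median of 0.07, with 4 higher and 1 lower in both mice. The mitophagy receptor Bnip3 stood at 10.2 and 9.08 CPM, against 7.73 and 7.74 CPM.

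**Figure D5:**
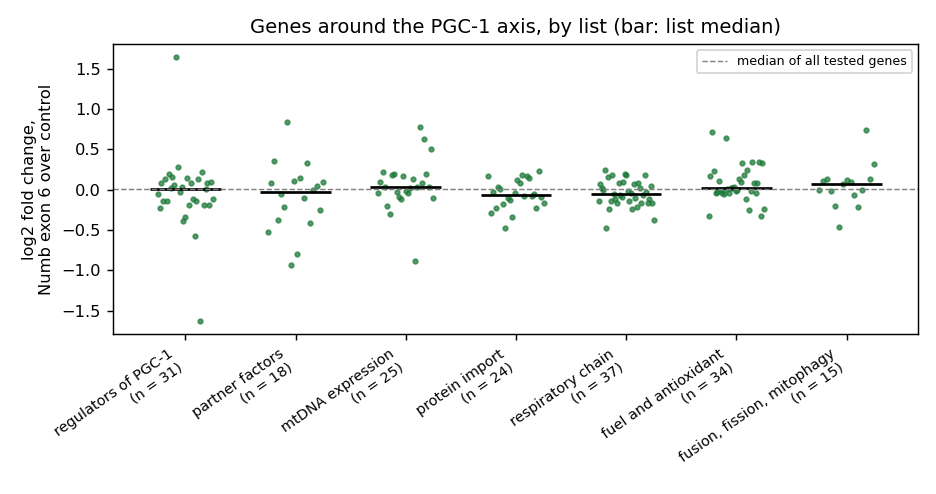
Log2 fold change of the Numb exon 6 over the control morpholino for each tested gene (dots) of the 7 lists, on the y axis, with the list median as a black bar and the median of all tested genes as a dashed line. Values are from estimated counts. List medians lie between -0.06 and 0.07, and the widest values are those of Creb1 (1.65) and Camk4 (-1.63).

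In the promoter windows of several of these lists the motifs of the respiratory factors were more frequent than over all genes, though 0 of 27 coactivator regulators held either. The Nrf1 core stood in 5 of 27 respiratory chain genes (18.5%) and 3 of 21 genes of mitochondrial DNA expression (14.3%), against 3.05% of all genes. The ETS motif stood in 6 of these 21 (28.6%), 3 of 22 import genes (13.6%) and 3 of 13 fusion, fission and mitophagy genes (23.1%), against 4.31% of all genes. These counts describe the sequence and were not tested.

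The same levels were set side by side by animal, mouse 2 minus mouse 1, also as a description without a test, because the genes were selected on the levels in the 4 libraries. This sets 1 animal against 1, and each animal's 2 libraries differ in morpholino. Over all tested genes edgeR called 0.0254% between the mice at an adjusted p under 0.05, and nothing is read from that for the 7 genes. Ppargc1b had 2.24 and 2.49 CPM in mouse 2 (Numb exon 6 and control library), against 1.90 and 1.22 CPM in mouse 1, with a log2 fold change of 0.60 ± 0.32 (SE). Gabpa had a log2 fold change of -0.23 ± 0.10 and Tfam of -0.16 ± 0.10 (SE), with both libraries of mouse 2 under both of mouse 1 in CPM. Pprc1 had -0.08 ± 0.38, Nrf1 -0.07 ± 0.11, Esrra -0.18 ± 0.47 and Ppargc1a -0.21 ± 0.40 (SE).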

How the data were processed

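Per the submitters' processing notes, reads were handled with HISAT2 2.1.0 and StringTie 1.3.6 on GRCm38. Libraries were made from 5 ng RNA by SMART-Seq2, per the labels' protocols, a method that does not mark the strand. The authors' deposited estimated counts are whole numbers that sum to 230431665 to 355411827 per library. In 99.96% to 100% of the single-transcript genes above 500 counts they match, within 1%, the product of TPM, transcript length and a library-wide constant, so they come from coverage and the fragments sequenced are not known. The authors' deposited TPM are scaled to length and library total.

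Counts were tested over all genes with edgeR 4.0.16 (TMM, default filter, robust quasi-likelihood, no block, Benjamini-Hochberg at 0.05). CPM are TMM-scaled, ratios within a mouse use a prior count of 2, and SEs derive from the test statistic. DESeq2 1.42.0 and limma 3.58.1 were alternatives. The scripts were checked on simulated counts. Groups and mice come from the labels. Same-numbered libraries share an animal, so the mouse pairs them (correlation of deviations 0.41 across the 8540 genes whose mean log2 CPM reached 3, 0.06 over all tested). Annotation is GENCODE vM21, which holds 55094 of the identifiers; sequences are RefSeq GRCm38.p6. The members, lists and markers were chosen with earlier results of these data known. Named pathway genes are among the 4 with the smallest p of each list in either contrast, or fixed by name for their place in the axis. The genes nearest in pattern to Ppargc1a are not reported here.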

Additional observations from a re-analysis of the deposited data

How the results depend on the processing

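Genes called between the morpholinos numbered 0 in edgeR, also with the mouse as a block. They numbered 10 without a filter on low counts, 1 when 2 libraries had to reach 5 CPM, 65 in DESeq2, 159 in DESeq2 with the mouse as a block, and 0 to 1 when 1 library was left out (1 without the Numb exon 6 library of mouse 2 or the control library of mouse 1). The cause was not tested. Of the pathway genes 0 were called, except 1 in DESeq2 with the mouse as a block. Between the mice edgeR called 7 genes, 1 with the morpholino as a term, 119 without a filter, 495 in DESeq2 and 3 on log2(TPM + 1). Without 1 library it called 1 to 28: 1 without either library of mouse 1, 28 without the Numb exon 6 and 19 without the control library of mouse 2.

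The log2 fold change of Pprc1 between the morpholinos ran from -0.92 to -0.58 over 15 alternatives, with the smallest size on log2(TPM + 1). That of Esrra ran from 0.42 to 0.94 over 14; requiring 5 CPM in 2 libraries left no value for Esrra or Ppargc1b. Nrf1 kept its sign in 15 of 15, Gabpa and Tfam in 13 of 15, Ppargc1b in 13 of 14 and Ppargc1a in 11 of 15. With the Numb exon 6 sample from mouse 1 left out Gabpa and Tfam turned to -0.05 and -0.07, and to -0.03 and -0.04 without the control library of mouse 2. The mouse block changed no direction.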
